A study of Caenorhabditis elegans with 2 samples.

Results

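The 45 genes described here are the homeobox genes of Caenorhabditis elegans outside the Hox and ONECUT groups that were listed by name for this purpose, and all 45 names matched a gene among the 19973 nuclear protein-coding genes of the annotation. They were followed through a chromatin immunoprecipitation with sequencing of tagged DUXL-1, a homeodomain protein whose own gene, duxl-1, is one of the 45. For each gene the strongest region was taken whose summit fell in the promoter window, which began 1000 bp before a protein-coding transcript start and ended 200 bp after it. The thresholded list of 1980 peaks was used first, and otherwise the pooled list of 30000 candidate regions, which includes background regions on purpose. The rule names the genes and uses no measured value, but the list was drawn up with earlier results of these data known.

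The 2 samples are biological replicates and form 1 group, L4 larvae (the last larval stage) of hermaphrodite strain OP470, with the genotype unc-119(tm4063) III; wgIs470. Every animal of the strain carries the unc-119 allele and the integrated transgene, which stably expresses DUXL-1 with GFP and FLAG joined to its C-terminus, and the precipitating antibody was against GFP. Whole animals were used, so regions from different cell types are mixed. The design has no second group and a control precipitation is not analysed here, so the values say where regions lay and how strong they were, and no region need mark binding by DUXL-1. Signal is the enrichment that the authors' peak caller gave each region, with no unit, and was used to rank regions within a list. Its lowest value in the thresholded list was 65.0. With 2 replicates no spread was computed and both values are given. The number of reads is unknown, because the lists hold none.

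Homeobox genes encode transcription factors that bind DNA through the homeodomain, a fold of helices of which one lies in the major groove and often reads a short core written TAAT. In C. elegans the genes outside the Hox cluster include families that act with other domains, such as LIM, POU and paired domains, and many of them fix the identity of single neuron types, while others act in the epidermis, the pharynx or the gonad. Many homeobox proteins act on the promoters of their own gene or of other homeobox genes, which is why the promoters of this family were followed one by one.

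Of the 45 genes, 4 had a thresholded promoter peak, or 8.89%, against 6.71% of all genes. These were ceh-83, duxl-1, ceh-99 and ceh-43. A further 9 had a candidate region below the threshold, so that 13 of 45 had a region of any strength in the pooled list, or 28.9%, against 39.1% of all genes. The thresholded share was near that of all genes, and the share with any pooled region was below it. No test was run on these 45 genes, so nothing particular to the family is read from either. Of these 4 genes, ceh-83 and duxl-1 had strong peaks in both replicates, and ceh-99 and ceh-43 lay just inside the threshold.

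The sequences under the 2 strong peaks are shown because these carry the highest promoter signals of the family. They are written 5′ to 3′ along the gene, from the RefSeq sequence of WBcel235, which has ce11 coordinates. Only the parts of the peaks upstream of the annotated starts are printed, and capitals mark TAAT or GAGAGA on either strand. The ceh-83 stretch is chrII:1736534-1736678, minus strand, 145 bases, with the summit at base 120. The duxl-1 stretch is chrII:1663593-1663698, plus strand, 106 bases, and its summit lies downstream of it. The duxl-1 stretch holds neither word, and no sequence of its untranslated region is printed.
ceh-83: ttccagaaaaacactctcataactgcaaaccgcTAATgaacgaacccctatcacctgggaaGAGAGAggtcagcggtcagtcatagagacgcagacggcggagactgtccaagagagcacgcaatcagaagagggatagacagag
duxl-1: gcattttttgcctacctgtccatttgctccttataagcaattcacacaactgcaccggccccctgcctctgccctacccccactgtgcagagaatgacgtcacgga

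The peak at ceh-83, annotated in RefSeq as a homeodomain-only protein, was the strongest of the family. Its signal was 569 in the pooled list, with 286 in replicate 1 and 263 in replicate 2. It ranked 41 of 30000 candidates in the pooled list, 44 in replicate 1 and 47 in replicate 2, so both replicates placed it almost alike. The summit lay 26 bp upstream of the outermost start of ceh-83, in intergenic sequence. The nearest tRNA, snoRNA or snRNA gene was 216443 bp away, and no other gene had the summit in its promoter window. Among the genes with a thresholded promoter peak, ceh-83 was number 16 by signal. The homeobox genes ceh-81 and ceh-82 lie next to ceh-83 on the same chromosome. ceh-82 had a candidate of signal 32.2 with its summit 154 bp upstream, below the threshold, and ceh-81 had no candidate in its window.

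The gene of the tagged factor, duxl-1, had a thresholded peak with its summit 34 bp downstream of the start, in the 5 prime UTR. Its signal was 184 in the pooled list, 124 in replicate 1 and 79 in replicate 2, and its rank was 245 in the pooled list, 129 in replicate 1 and 352 in replicate 2. Both replicates held it among their 1980 strongest candidates, and replicate 1 ranked it higher. The summit also lay in the window of the divergent gene ZC204.14, 784 bp upstream of it. A further thresholded peak, with signal 74 (44.2 in replicate 1 and 28.5 in replicate 2), lay in a coding exon of duxl-1. The transgene carries duxl-1 sequence, and its copies cannot be told apart from the gene's own locus in these lists.

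The surroundings of duxl-1 held many candidates. Within 10 kb on either side of its start the pooled list had 22 candidates, against 6 for the median gene, and only 66 of the 19973 genes (0.330%) had as many or more. Among the other 44 genes of the family the number ran between 0 and 16, with a median of 4.50, and it was 10 at ceh-83. In the 10 kb downstream of the duxl-1 start there were 14 pooled candidates, 15 in replicate 1 and 11 in replicate 2. In the 10 kb upstream there were 8 in each of the 3 lists. From 10 to 20 kb downstream the numbers were 7, 3 and 4 in the pooled list, replicate 1 and replicate 2. From 20 to 30 kb downstream they were 7, 6 and 6. From 10 to 20 kb upstream they were 8, 7 and 10. Candidates were thus more numerous in the 10 kb after the start than in each later stretch downstream in all 3 lists. Both upstream stretches held similar numbers, and where the dense part ends was not determined. Whether copies of the transgene take part in this was not tested. The ceh-83 summit lay 72.9 kb from the duxl-1 start, beyond the stretches counted here.

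**Figure D1:**
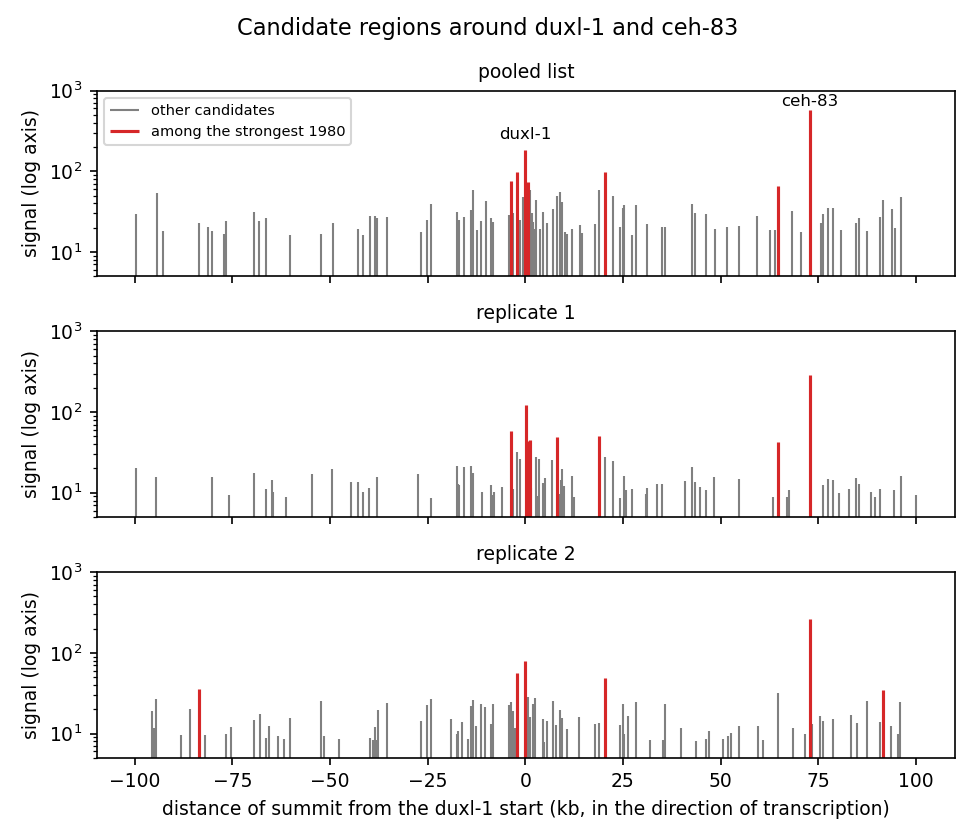
Candidate regions within 100 kb of the duxl-1 start, with the distance of the summit from that start in kb on the horizontal axis and signal on a log axis, for the pooled list, replicate 1 and replicate 2. Red lines are regions among the 1980 strongest of their list and grey lines all others; the lines at ceh-83 reach 569, 286 and 263, and those at duxl-1 reach 184, 124 and 79.

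The sequences under the 2 peaks just inside the threshold are shown because small RNA genes lie in them. Each is the whole peak of 280 bases in ce11, along the strand of the homeobox gene. The ceh-43 peak is chrIII:4450263-4450542, minus strand, and capitals mark the tRNA gene WBGene00014267. The ceh-99 peak is chrII:12519315-12519594, plus strand, and capitals mark the part of the miRNA gene cel-mir-77 inside it.
ceh-43: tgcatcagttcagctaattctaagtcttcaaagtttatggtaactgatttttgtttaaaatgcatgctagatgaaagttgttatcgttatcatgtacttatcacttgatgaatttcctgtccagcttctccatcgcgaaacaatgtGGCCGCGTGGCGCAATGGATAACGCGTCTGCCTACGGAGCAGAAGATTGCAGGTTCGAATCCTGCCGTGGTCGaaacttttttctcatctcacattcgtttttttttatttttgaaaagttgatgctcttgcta
ceh-99: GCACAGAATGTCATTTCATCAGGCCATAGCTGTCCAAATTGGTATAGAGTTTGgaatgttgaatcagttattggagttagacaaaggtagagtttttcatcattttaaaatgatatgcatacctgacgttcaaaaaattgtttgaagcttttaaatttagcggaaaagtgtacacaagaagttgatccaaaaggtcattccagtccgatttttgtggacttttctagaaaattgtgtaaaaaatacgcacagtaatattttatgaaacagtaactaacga

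At ceh-43, a Distal-less relative that acts in head epidermis and in dopaminergic neurons, the peak had a signal of 66.3 in the pooled list, 26.9 in replicate 1 and 41.2 in replicate 2. Its summit lay 460 bp upstream of the start and 7 bp from the tRNA gene. tRNA genes carry their promoters inside the transcribed sequence, where RNA polymerase III factors assemble. The rank was 1906 in the pooled list, 3940 in replicate 1 and 1278 in replicate 2, so that replicate 1 placed it below its own 1980 strongest candidates.

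At ceh-99, whose role is not given here, the peak had a signal of 67.2 in the pooled list. The strongest candidate in its window had a signal of 30.5 in replicate 1 and 36 in replicate 2. In replicate 1 this was a different region, 924 bp upstream in the pooled list, and the candidate that overlapped the thresholded peak had 22.1. The summit lay 526 bp upstream of the start and 88 bp from the miRNA gene, and it also fell in the window of the divergent gene srh-70, 596 bp upstream of that gene. The rank of the window's strongest candidate was 1847 in the pooled list, 2952 in replicate 1 and 1706 in replicate 2. At both genes the peak was therefore among the 1980 strongest candidates of replicate 2 and of the pooled list, but not of replicate 1.

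The requirement that the strongest pooled promoter region overlap one of the 1980 strongest candidates in both replicates was met by 2 of the 45 genes, ceh-83 and duxl-1, or 4.44%, against 3.90% of all genes.

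**Figure D2:**
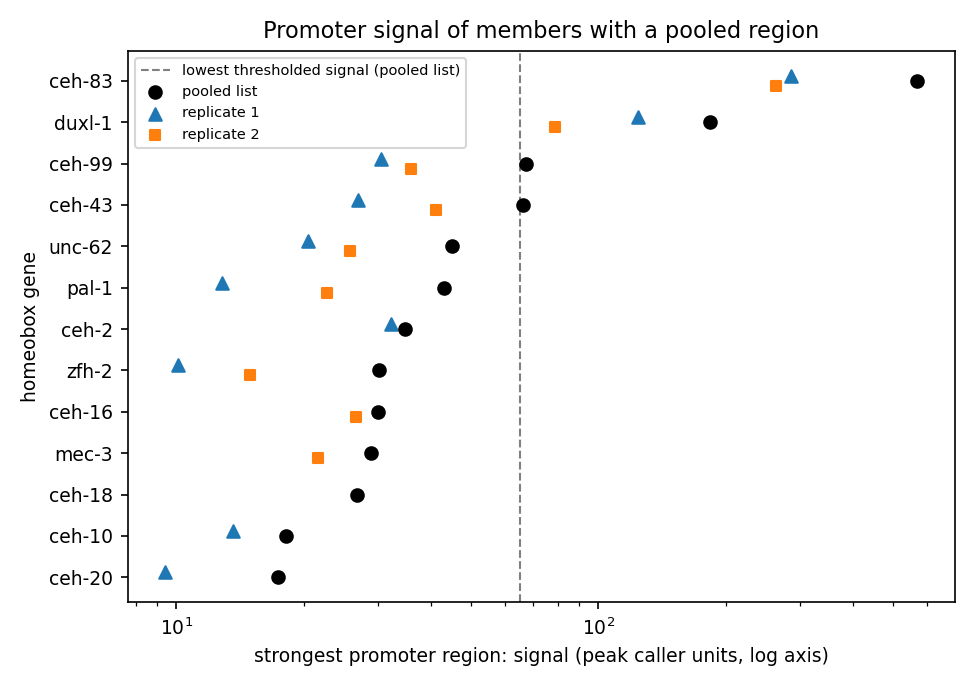
Signal of the strongest promoter region (log axis) for the 13 genes with a region in the pooled list, as circles for the pooled list, triangles for replicate 1 and squares for replicate 2. The dashed line is the lowest thresholded signal of the pooled list, 65.0; ceh-83 and duxl-1 stand well to its right, ceh-99 and ceh-43 at 67.2 and 66.3 just right of it, and a missing symbol means that the list had no region in that window.

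The 9 genes with a region below the threshold had signals between 17.4 and 45. The next gene outside the threshold was unc-62, a Meis-type TALE factor and partner of Hox proteins. Its strongest candidate had 45 in the pooled list, 20.5 in replicate 1 and 25.8 in replicate 2. The pooled one lay in an intron, 367 bp upstream of one of its 15 transcript starts, and the replicate 1 value belongs to another region, since the replicate 1 candidate overlapping the pooled region had 11. Those starts gave unc-62 a promoter window of 8650 bp, which held 9 pooled candidates with signals between 16.1 and 45. Of these 9, 6 overlapped a candidate of replicate 1 and 6 one of replicate 2. The thresholded summit nearest to its outermost start was 156281 bp away.

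At pal-1, the caudal-type gene of posterior patterning, the strongest candidate had 43 in the pooled list, 12.8 in replicate 1 and 22.7 in replicate 2, with the summit 201 bp upstream of a start. In replicate 1 the strongest candidate, at rank 17812, was a different region. The replicate 1 candidate overlapping the pooled region, at rank 17863, also had 12.8. The windows of pal-1 held 3 pooled candidates, between 27.9 and 43. At zfh-2, a zinc finger homeobox gene, the strongest had 30.2 in the pooled list, 10.1 in replicate 1 and 14.9 in replicate 2, and lay in an intron. No replicate 1 candidate overlapped that pooled region, and the replicate 1 value is from elsewhere in the window. These genes, with unc-62, were the only ones below the threshold with a candidate in all 3 lists. At each of them the strongest candidate of replicate 2 ranked higher within its list than that of replicate 1. The ranks in replicates 1 and 2 were 7237 and 3617 at unc-62, 17812 and 4927 at pal-1, and 24767 and 12057 at zfh-2.

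The other 6 had a candidate in at most 1 replicate. ceh-2, an empty spiracles relative that acts in pharyngeal neurons, had 34.7 in the pooled list and 32.2 in replicate 1 only, and its summit lay inside the tRNA gene WBGene00022946, 734 bp upstream of the start. ceh-16, the engrailed gene of the lateral epidermis, had 30.1 in the pooled list and 26.6 in replicate 2 only. mec-3, the LIM gene of touch receptor neurons, had 28.9 in the pooled list and 21.7 in replicate 2 only. Its replicate 2 candidate overlapped the pooled region by 131 bp. The pooled summits of these 3 genes lay between 668 and 734 bp upstream of a start.

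ceh-18, a POU gene of the gonadal sheath, had 26.8 in the pooled list and no candidate in either replicate. ceh-10, a paired-type gene that acts with ttx-3 in the AIY interneuron, had 18.2 in the pooled list and 13.6 in replicate 1 only, with the summit 35 bp downstream of the start in a coding exon. ceh-20, the Pbx-type gene, had the lowest value, 17.4 in the pooled list and 9.40 in replicate 1 only. That replicate 1 candidate overlapped the pooled region by 57 bp, and its summit lay outside that region.

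**Figure D3:**
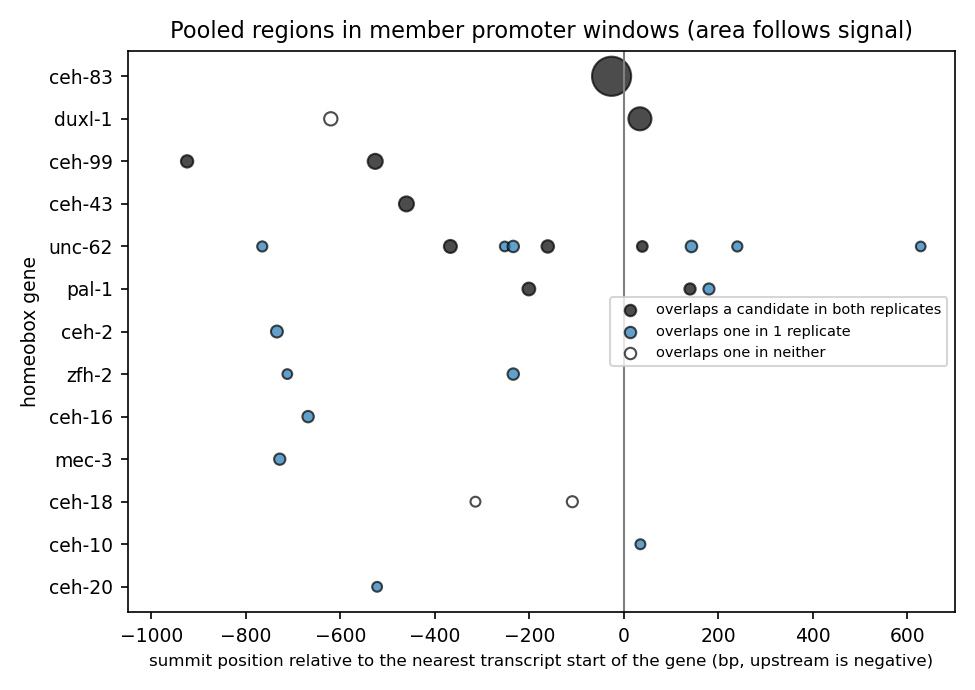
Position of the summit of every pooled region in the promoter windows of the 13 genes, in bp from the nearest transcript start of the gene with upstream negative; the area of a point follows its signal and its fill shows whether the region overlapped a candidate in both replicates, in 1 or in neither. The regions at ceh-83 and duxl-1 lie 26 bp upstream and 34 bp downstream of a start, those at ceh-43 and ceh-99 460 and 526 bp upstream, and unc-62 has the most, 9.

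Set among the 7817 genes with a pooled promoter region, the 13 spanned nearly the whole range. The median percentile of their strongest region was 56.9, against 50 over all such genes, and the median signal was 34.7 against 31.5. ceh-83 was at percentile 99.8, duxl-1 at 97.4, ceh-99 at 83.9 and ceh-43 at 83.3. At the low end, ceh-10 was at 8.46 and ceh-20 at 5.41. Of the 13, 6 were below the middle of the distribution. Because genes entered this ranking only if they had a region, it describes those 13 genes and not the 45.

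**Figure D4:**
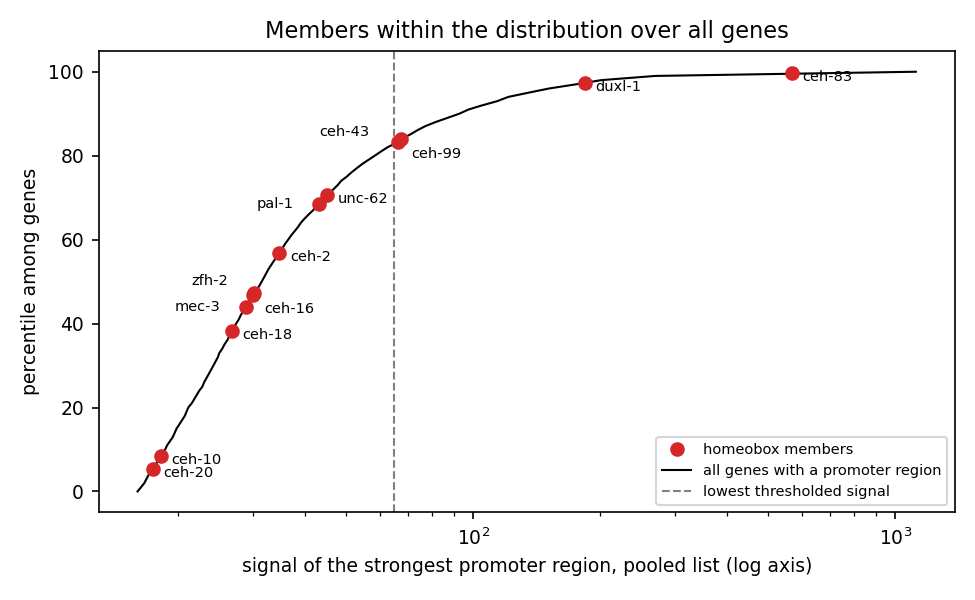
Percentile (vertical axis) against signal of the strongest promoter region in the pooled list (log axis), with the 13 homeobox genes as points on the curve of all 7817 genes with a region. The dashed line is the lowest thresholded signal, 65.0; 4 points lie right of it, the highest being ceh-83 at percentile 99.8.

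Candidates in the single replicates were about as frequent as in the pooled list. Replicate 1 had one in the windows of 14 of the 45 genes, or 31.1%, against 39.9% of all genes. Replicate 2 had one at 17 of 45, or 37.8%, against 39.2% of all genes. A candidate in all 3 lists was found at 7 genes, or 15.6%, against 23% of all genes. No candidate in any of the 3 lists was found at 22 genes, or 48.9%, against 43.4% of all genes.

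The 10 genes with a candidate in a replicate but none in the pooled list had low values. ceh-32, a gene of the sine oculis family that acts in head development, had 14.1 in replicate 1 and 8.17 in replicate 2. ceh-37, an Otx relative, had 13.3 in replicate 1 and 20.9 in replicate 2. In replicate 1 alone, cog-1, an Nkx6 relative, had 18.7 and ceh-24, an NK-type gene, had 9.03. In replicate 2 alone, the highest was 20 at ceh-22, the NK-type gene of pharyngeal muscle. The others there were ceh-27 with 15.5, irx-1 with 13.9, ceh-14 with 11.6, unc-30, which specifies GABAergic motor neurons, with 11, and unc-86, a POU gene of neuronal lineages, with 10.8. Each of these ranked far below the 1980 strongest candidates of its replicate; the best rank was 5895, at ceh-37 in replicate 2.

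The 22 genes without a candidate in any list were alr-1, ceh-6, ceh-34, ceh-36, ceh-40, ceh-60, dsc-1, lim-4, lim-6, lim-7, lin-11, mls-2, pros-1, tab-1, ttx-1, ttx-3, unc-4, unc-42, vab-3, vab-7, vab-15 and zag-1. They include regulators of single neuron types, such as ttx-1 in the thermosensory neuron AFD, ttx-3 in AIY and unc-4 in motor neurons. Not being listed says that no region reached the 30000 strongest, and not that signal was absent.

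By homeodomain class, pooled candidates were spread over 7 of the 9 classes named here, with none in the sine oculis and Prospero classes. Over all protein-coding genes, 39.1% had a pooled candidate and 43.4% had none in any list. Of 7 LIM genes, 1 had a pooled candidate (mec-3) and 5 had none in any list. Of 11 paired-type genes, 2 had a pooled candidate, which were duxl-1 and ceh-10, and 7 had none in any list. Of 10 NK and related genes, 3 had a pooled candidate, led by ceh-43. Of 5 TALE genes, 2 had one (unc-62 and ceh-20), and of 3 POU genes, 1 had one (ceh-18). None of the 2 sine oculis genes had one. The classes were assigned by hand, and ceh-83 and ceh-99 were left unassigned. Groups this small allow no comparison between classes.

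On X, which holds 14 of the 45 genes, 1 gene (ceh-18) had a pooled candidate, or 7.14%, against 38.7% of all genes on X. None of these 14 genes had a thresholded promoter peak, against 6.04% of all genes on X. On chromosome V, 1 of 8 (unc-62) had a pooled candidate, or 12.5%, against 31.5% of all genes there. On chromosome III, 5 of 8 had one, or 62.5%, against 48.4%, and on chromosome II 3 of 6, or 50%, against 41.2%. All 3 genes on chromosome II with a region, ceh-83, duxl-1 and ceh-99, had a thresholded peak. These are 3 of the 6 genes there, against 6.44% of all genes on chromosome II. With 14 or fewer genes per chromosome, nothing particular to a chromosome is read from these shares.

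Homeobox genes can have long flanking sequence, and thresholded peaks were therefore also looked for anywhere between the neighbouring protein-coding genes. This territory had a median length of 14300 bp for the 45 genes, against 6039 bp for all genes. It held a thresholded peak at 8 of 45 genes, or 17.8%, against 16.1% of all genes. Beside the 4 genes with a promoter peak, these were ttx-3, lim-7, pros-1 and ceh-60. Over the 8 genes there were 9 such peaks, and 4 of the 9 (44.4%) had a tRNA, snoRNA or snRNA gene at most 100 bp from the summit, against 18.9% of all nuclear thresholded peaks. These 4 were the peaks at ceh-43, ttx-3, lim-7 and pros-1. The 18.9% covers peaks anywhere in the nuclear genome, and not only those in territories. With 9 peaks, nothing particular to the family is read from the difference.

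The tRNA genes under the pros-1 and ttx-3 peaks are shown because the summits lay in or next to them. Both peaks are whole, in ce11, along the strand of the tRNA gene, which capitals mark. The pros-1 peak is chrIII:8069212-8069491, plus strand, 280 bases, with the summit at base 141. The ttx-3 peak is chrX:11757816-11758011, minus strand, 196 bases, with the summit at base 99.
pros-1: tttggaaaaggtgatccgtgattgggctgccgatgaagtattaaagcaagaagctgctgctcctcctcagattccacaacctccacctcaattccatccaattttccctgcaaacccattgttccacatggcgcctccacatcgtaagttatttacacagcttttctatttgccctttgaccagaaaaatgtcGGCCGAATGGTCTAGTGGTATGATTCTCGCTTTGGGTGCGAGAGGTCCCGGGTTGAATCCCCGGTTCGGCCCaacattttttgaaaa
ttx-3: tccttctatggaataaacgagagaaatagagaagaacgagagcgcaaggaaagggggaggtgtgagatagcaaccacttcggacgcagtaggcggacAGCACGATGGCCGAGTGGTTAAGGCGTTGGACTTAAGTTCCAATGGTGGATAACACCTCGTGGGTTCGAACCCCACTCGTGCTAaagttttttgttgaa

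The peak in the territory of ttx-3, the LIM gene of the AIY interneuron, had a signal of 240 in the pooled list, 94.1 in replicate 1 and 125 in replicate 2. Its summit lay inside the tRNA gene WBGene00014286, 6543 bp from the end of ttx-3. At rank 147 in the pooled list, 275 in replicate 1 and 142 in replicate 2, it was strong in both replicates, and it was the second strongest of the 9 after ceh-83.

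The peak upstream of lim-7, the LIM gene of the gonadal sheath, had 206 in the pooled list, 147 in replicate 1 and 66.7 in replicate 2. Its summit lay 9578 bp upstream of the start and 50 bp from the snoRNA gene T19B4.8. The peak inside pros-1, the Prospero gene, had 69.9 in the pooled list and 48.6 in replicate 2, and overlapped no candidate of replicate 1. Its summit lay 53 bp from the tRNA gene WBGene00023107, at the position of a pros-1 coding exon. The peak 3771 bp beyond the end of ceh-60, a Pbx-type gene of the intestine, had 65.9 in the pooled list, 35.5 in replicate 1 and 23.2 in replicate 2, and its nearest tRNA gene was 74771 bp away. Whether DUXL-1 bears on any of these small RNA genes was not tested.

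The share of the family's summits with the homeodomain core TAAT depended on the width searched. With both strands searched in the 101 bp centred on the summit, TAAT lay at 4 of the 13 pooled summits (30.8%), which were duxl-1, pal-1, ceh-18 and ceh-20. The share was 52.3% over all 6802 distinct strongest promoter candidates, 40% over the 1026 distinct strongest thresholded promoter peaks and 69.9% over the 101 bp upstream of the outermost start of all genes. Of the 4 thresholded summits only duxl-1 had it in these 101 bp, outside the stretch printed above. The TAAT and GAGAGA printed for ceh-83 lie outside its 101 bp. Both are reached with 100 bp on each side. In the 101 bp upstream of their own starts, 28 of the 45 genes had TAAT, or 62.2%. With 100 bp on each side of the summit, TAAT lay at 8 of the 13 (61.5%). That compares with 79.1% of candidate and 68.7% of thresholded promoter summits. The 13 summits are few and most are below the threshold, so nothing particular to the family is read from these shares.

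Longer words were rarer. TAATTA, read by many paired-type proteins, and TAATCC, read by Otx-type proteins, lay at none of the 13 summits, and each lay at under 4% of all candidates (2.94% and 2.84%). CAAGTG, read by NK-type proteins, lay at ceh-43 and ceh-20, or 15.4% of the 13, against 6.26% of all candidate summits. TGACAG, read by Meis-type proteins, lay only at ceh-20, or 7.69%, against 3.72% of candidate summits. ATGCAAAT, the octamer of POU proteins, lay only at ceh-10, or 7.69%, against 0.764% of candidate summits. TGATTGAT, a Pbx-type word, lay at none, against 0.691% of all candidates. GAGAGA, a word not read by homeodomains, lay only at ceh-2, or 7.69%, against 21.7% of thresholded promoter summits and 13.0% of candidates. CAAGTG and TGACAG do not overlap the TAAT core in letters, while TAATTA and TAATCC hold it. A match is a matter of letters, and none says only that these letters are not in the window.

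The other homeobox genes gave 4 further thresholded promoter peaks. Of 6 Hox genes, lin-39 had one (signal 102, with 43.6 in replicate 1 and 52.4 in replicate 2). Of 6 ONECUT genes, 2 had one, which were ceh-38 (195, with 79.9 and 106 in replicates 1 and 2) and ceh-39 (93.2, with 62.2 and 37.6). Of 45 further homeobox genes with a matching name, dve-1 had one (75.2, with 47.6 and 18.1). The nearest tRNA, snoRNA or snRNA gene was between 2477 and 38313 bp from these 4 summits. Candidates of any strength were found at 5 of 6 Hox genes, 3 of 6 ONECUT genes and 14 of the 45 further genes. Among all nuclear protein-coding genes, 6.71% had a thresholded promoter peak and 39.1% had a candidate of any strength. No test was run on these lists. With 6 genes each in the Hox and ONECUT lists, nothing particular to either is read from the counts. Across all these lists ceh-83 had the highest signal, followed by ceh-38 and duxl-1.

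**Figure D5:**
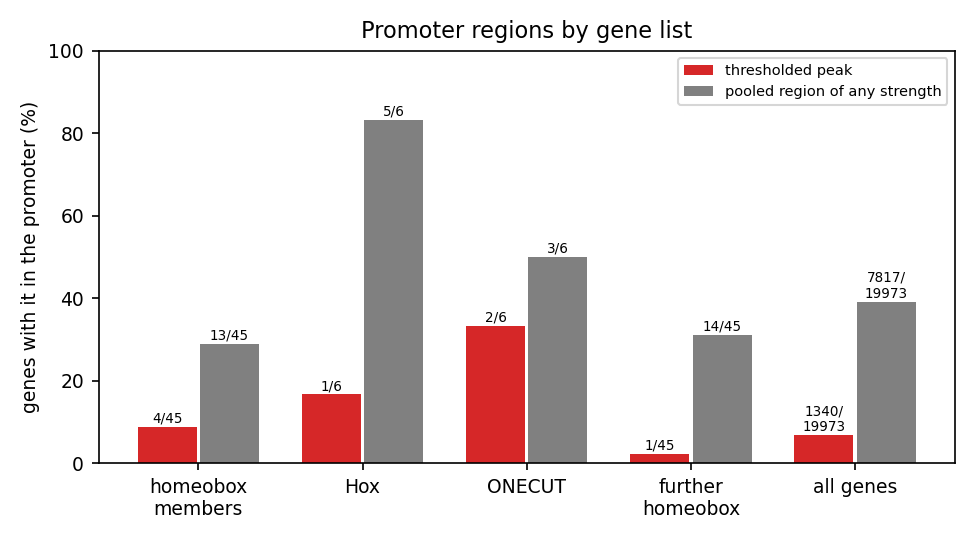
Percent of genes with a thresholded peak (red) or a pooled region of any strength (grey) in the promoter window, for the 45 homeobox genes described here, for the Hox, ONECUT and further homeobox genes, and for all nuclear protein-coding genes; numbers over the bars are genes with it out of all in the list. The 45 genes are at 8.89% and 28.9%, and all genes at 6.71% and 39.1%.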

How the data were processed

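Anti-GFP chromatin immunoprecipitation with sequencing of tagged DUXL-1 was deposited for 2 replicates of 1 group. The files are lists of regions in ce10 and ce11, and the ce11 lists were used here. The signal of each region was deposited by the authors as the value their peak caller assigned. Per the deposited README files, candidates were derived from the alignments and a control, and the thresholded peaks (irreproducible discovery rate, IDR) from the pooled and replicate candidates. Which aligner and peak caller were run, the threshold and the scaling between lists: not given in the sources used here. The 1980 thresholded peaks were checked to be the 1980 pooled candidates with the highest signal. In the pooled list 98.3% of summits lay at the midpoint of their region.

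Summits were set against Ensembl release 115 transcript starts (WBcel235). No region ran past the end of a RefSeq WBcel235 chromosome. Every member is accounted for by its thresholded, pooled and replicate regions. By the rule for named genes, those with a thresholded peak and the 10 with the highest pooled signal are given in full, and genes sharing a summit and other homeobox genes with a thresholded promoter peak are named. The window assignment was tested on simulated data. No test was run, since there is 1 group. Members and lists were chosen with earlier results of these data known. Depth in reads is unknown. Alternatives were other windows, lists, overlaps and word flanks, and a territory without peaks near tRNA, snoRNA or snRNA genes, added after seeing the data. The ce10 lists were not used. Python 3.11.15, numpy 2.4.6, pandas 2.3.3 and matplotlib 3.10.9 were used.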

Additional observations from a re-analysis of the deposited data

How the results depend on the processing

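The 4 genes with a thresholded promoter peak became 2 (ceh-83 and duxl-1) with the stronger 990 peaks, or 4.44%, against 3.80% of all genes. With the 1980 strongest candidates of a single replicate there were 2 genes without replicate 2 (4.44%, against 6.28% of all genes) and 4 without replicate 1 (8.89%, against 6.01%), so ceh-43 and ceh-99 rest on replicate 2. The count was 3 with a window of 500 bp upstream to 100 bp downstream, which loses ceh-99 (6.67%, against 5.10%), and 3 without peaks near small RNA genes, which loses ceh-43 (6.67%, against 6.14%). It stayed 4 (8.89%) with 2000 bp upstream, the outermost start or the nearest start, against 8.82%, 6.25% and 5.10% of all genes. ceh-83 and duxl-1 were counted in all of these settings. The 13 genes with a pooled candidate became 8 in the 500 bp window and 18 with 2000 bp, and were between 14 and 17 in the single replicates. The share of all genes moved too, to 28.1% and 49.4% in these windows. The 8 genes with a thresholded peak in their territory became 4 (ceh-83, duxl-1, ceh-99 and ceh-60, against 13.6% of all genes) without peaks near small RNA genes, a choice made after seeing the data, and 6 (13.3%, against 15.4% of all genes) from 5000 bp upstream to the gene's end, which gains ceh-14 and loses ceh-60, lim-7 and ttx-3. The median percentile of 56.9 was between 45.1 and 67.0 in the single replicates. TAAT lay at 8 of 13 summits (61.5%) with 100 bp on each side, against 79.1% of candidate and 68.7% of thresholded promoter summits. Requiring a reciprocal overlap of 50% kept ceh-83 and duxl-1 among the strongest candidates of both replicates. With unknown read depth, regions under the 30000 strongest are not listed and their signal cannot be given.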

Other observations

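Genes with more transcript starts have a longer promoter window and more chance to hold a region. Of the 21 homeobox genes with 2 or more starts, 7 had a pooled candidate (33.3%), against 54.3% of all genes with 2 or more starts, and 1, ceh-83, had a thresholded peak (4.76%, against 9.87%). Of the 24 with 1 start, 6 had a candidate (25%, against 33.7%) and 3 had a thresholded peak (12.5%, against 5.58%). The median window was 1201 bp for the homeobox genes and 1201 bp for all genes. These medians hide the longer windows of genes with 2 or more starts. Such genes were 21 of the 45 homeobox genes and 5250 of all 19973 genes.

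The distance from the outermost start to the nearest thresholded summit ran from 26 bp at ceh-83 to 296288 bp at ttx-1. At ceh-14 it was 3996 bp, and that peak lay inside a neighbouring protein-coding gene, so it was not counted in the territory.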
